A study of Mus musculus with 10 samples.

Results

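The dystrophin-glycoprotein complex was examined through 8 genes: Dmd, Utrn, Dag1, Sgca, Sgcb, Sgcd, Dtna and Lama2. They were taken by symbol from a table of 23337 genes, and 8 of 8 were found and passed the authors' filter on low values. The samples were cardiomyocytes of wild-type mice at postnatal day 14, sorted by fluorescence from collagenase-digested hearts. AAV9 had been injected on postnatal day 1 at 5e+08 viral genomes for each gram of body weight. The GFP group (5 libraries) carried GFP alone, and the dnMKL1 group (5 libraries) carried GFP with dnMKL1, a dominant-negative form of the SRF coactivator MKL1, in both cases behind the cardiac troponin T promoter. GFP, the virus and the sort are thus shared by both groups, and vector expression depends on a promoter active in cardiomyocytes. The labels describe the replicates as biological and give no batch.

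The complex ties the actin cytoskeleton of muscle cells to the basement membrane. Dystrophin binds actin at one end and beta-dystroglycan at the other, alpha-dystroglycan binds laminin outside the cell through its sugar chains, and the sarcoglycans stabilise this bridge within the membrane. Syntrophins and dystrobrevin sit on the cytoplasmic side. Loss of dystrophin, of a sarcoglycan or of laminin alpha 2 causes muscular dystrophy, often with cardiomyopathy.

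Dystrophin and the alpha and beta sarcoglycans were lower in dnMKL1 libraries under the authors' scaling, by 24.5% to 32.5%, while dystroglycan, utrophin, dystrobrevin and laminin alpha 2 did not pass the test in either direction. Of the 8 genes, 3 were lower and 0 higher at an adjusted p-value under 0.05 in the authors' deposited table (the same number had an unadjusted p below that). Over all 14056 genes tested there, 17.4% were lower and 16.6% higher. Among the 4000 genes with base means of 500 to 15000, the range that holds all 8 genes, 34.8% were lower and 15.7% higher, so a count of 3 of 8 lower is close to the share among genes of like abundance. The median log2 fold change of the 8 genes was -0.099, beside -0.10 in that class and 0.021 over all genes tested. These directions depend on scaling. With both groups scaled to the same summed count, every log2 fold change rises by 0.29, and 0 of the 8 genes were then lower and 3 (Utrn, Dag1 and Dtna) higher, against 12.7% lower and 46.0% higher in the class and 6.60% lower and 40.4% higher over all genes tested. Changes below are given relative to the authors' scaling.

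**Figure D1:**
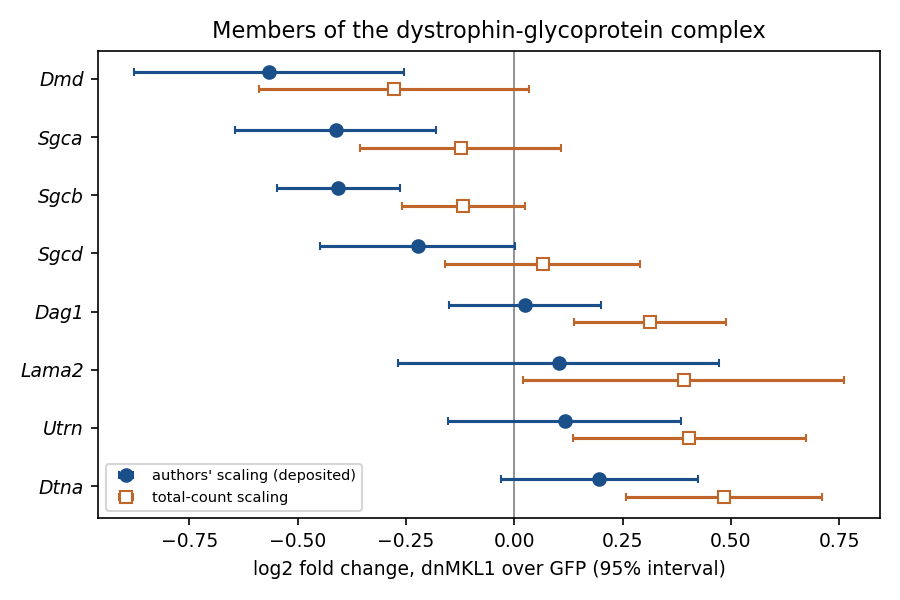
Log2 fold change of each gene, dnMKL1 over GFP, with its 95% interval, under the authors' scaling (filled circles) and under total-count scaling (open squares). Under the authors' scaling the intervals of Dmd, Sgca and Sgcb lie below 0, and under total-count scaling those of all 3 include 0.

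The table holds 1 comparison and no values per library, so levels are given as implied means: the group means, in normalized counts, that the base mean and the fold change imply. Size factors recovered from genes with a single read spanned 0.660 to 1.28 for GFP and 0.809 to 1.58 for dnMKL1, which puts the totals between about 8802947 and 17228265 counts. Mkl1, from which the vector's product derives, set the direction of the table, with a log2 fold change of 9.80 (SE 0.15) in the authors' deposited table. Reads of the vector and of the endogenous gene are not separated there. The 6 cardiomyocyte markers examined had base means from 10438 to 594986 in the authors' deposited table. Of these 6, 3 were lower and 0 higher with a median of -0.47, beside 17.4% lower and 16.6% higher over all genes tested. Most of these markers lie above the class with base means of 500 to 15000, in which 34.8% were lower. Their implied means summed to 1073780 for GFP and 654232 for dnMKL1, of which Myh6 made up most, at 768373 and 421599. The authors' deposited table gave -0.87 (SE 0.11) for Myh6, -0.58 (SE 0.10) for Tnnt2 and -0.78 (SE 0.16) for Ryr2. Actn2 (-0.35, SE 0.17), Pln (-0.21, SE 0.11) and Myl2 (-0.20, SE 0.11) did not pass there. Under total-count scaling 3 of the 6 were lower, while Pln and Myl2 were at 0.083 and 0.087. In such bulk samples fewer cells of a type and less RNA per cell cannot be told apart, and the part of the cardiomyocyte share in the lower members was not tested.

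The upstream start site of Dmd and the start site of Lama2 carry an SRF motif, and they are shown beside those of the 2 sarcoglycans that were lower because MKL1 acts through SRF. The windows are the 150 bases before the RefSeq start, from the RefSeq promoter table on GRCm38.p6, 5′ to 3′ on the gene's strand, with capitals marking the CArG box, the consensus motif of SRF. Dmd has start sites 2.10 Mb apart in that table, of which the upstream one makes full-length muscle dystrophin, and the upstream window is printed. The window at the downstream start held no match.
Dmd (chrX:82948720-82948869, plus strand): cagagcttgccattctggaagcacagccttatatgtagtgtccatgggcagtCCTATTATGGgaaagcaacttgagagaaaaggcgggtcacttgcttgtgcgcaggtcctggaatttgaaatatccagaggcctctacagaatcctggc
Lama2 (chr10:27616943-27617092, minus strand): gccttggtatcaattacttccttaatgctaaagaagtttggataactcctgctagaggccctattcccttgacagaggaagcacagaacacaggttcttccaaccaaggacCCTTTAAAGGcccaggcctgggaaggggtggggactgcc
Sgca (chr11:94976328-94976477, minus strand): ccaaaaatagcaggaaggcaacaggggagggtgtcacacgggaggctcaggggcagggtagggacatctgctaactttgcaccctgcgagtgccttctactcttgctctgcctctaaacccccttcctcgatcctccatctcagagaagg
Sgcb (chr5:73647738-73647887, minus strand): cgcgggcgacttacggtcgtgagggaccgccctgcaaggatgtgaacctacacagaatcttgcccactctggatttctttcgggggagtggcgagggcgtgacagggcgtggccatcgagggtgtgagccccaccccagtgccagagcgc

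The motif begins 98 bases before the upstream start of Dmd and 39 bases before that of Lama2. It was searched in the whole 300-base window, from 250 bases before to 50 after the start. Since its consensus reads the same on both strands 1 pass covers both. Only exact matches to CCWWWWWWGG, with W for A or T, were counted, and near matches were not searched in any window. Of the 8 genes 7 were matched in the promoter table, and 2 of these 7 held the motif at a start site. It was held by 165 of the 9931 tested genes with a promoter (1.66%) and by 535 of all 32851 promoters (1.63%). Dtna was not matched. Of these 2 genes Dmd was lower and Lama2 did not pass the test, and the log2 fold change of Dmd minus that of Lama2 was -0.67, with an interval from -1.35 to 0.014 that includes 0 when the SE is set to the sum of both SEs. Among genes with a matched promoter the motif was present in 1.85% of those lower, 1.47% of those higher and 1.66% of those not past the threshold. The windows also differ in base composition, with 45.7% G or C at the upstream start of Dmd and 75.3% at the richest start of Dag1. A match is a description of the letters and does not show binding.

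Dmd encodes dystrophin, the rod that links actin to dystroglycan. The gene lies on chromosome X at 82948870 to 85206141 (GRCm38, plus strand). Its implied mean was 2187 normalized counts for GFP (95% interval 1878 to 2548) and 1477 for dnMKL1 (1268 to 1721), and these intervals do not overlap. The authors' deposited table gave a log2 fold change of -0.57 (SE 0.16, adjusted Wald p = 0.0019), the largest fall of the 8 genes, a decrease of 32.5% with an interval of 16.2% to 45.6%. Under total-count scaling it was -0.28, with an adjusted p of 0.14. Counts per gene add full-length transcripts to the short isoforms that start within the gene, and the 2 were not separated.

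Utrn encodes utrophin, the relative of dystrophin found widely in tissues and at higher levels before birth, which can partly replace dystrophin where that is missing. Its implied means of 639 (560 to 730) and 693 (608 to 790) normalized counts overlapped between the groups. The authors' deposited table gave 0.12 (SE 0.14, adjusted Wald p = 0.58), and the interval of the change runs from a decrease of 10.1% to an increase of 30.6%. Per kilobase of longest transcript, the implied mean of Dmd was 2.84 times that of Utrn for GFP and 1.77 times for dnMKL1. The log2 fold change of Dmd minus that of Utrn was -0.68. Its 95% interval ran from -1.26 to -0.10 with the SE set to its upper bound, the sum of both SEs, which holds for any correlation between the genes.

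Such a difference between 2 genes is the same under any scaling that shifts every log2 fold change alike, as total-count scaling does here. Other size factors for single libraries could change it and were not run. The 28 pairs of the 8 genes were compared in this way, with no adjustment over the pairs, and the interval excluded 0 in 9. In these 9 pairs, Dmd was lower relative to Utrn, Dag1 and Dtna, and Sgca and Sgcb were each lower relative to the same 3 genes. No pair with Sgcd or with Lama2 had an interval that excluded 0, nor did any pair among Dmd, Sgca and Sgcb. With the SE at its upper bound, an interval that includes 0 does not show that 2 genes changed alike. The log2 fold change of Sgca minus that of Sgcb was -0.0066, with an interval from -0.38 to 0.37.

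Dag1 encodes both dystroglycan subunits, the laminin receptor at the centre of the complex. It lies on chromosome 9 at 108204634 to 108263958 (minus strand). It was the most abundant of the 8 genes, with implied means of 11514 (10563 to 12552) normalized counts for GFP and 11711 (10744 to 12765) for dnMKL1. The authors' deposited table gave 0.024 (SE 0.090, adjusted Wald p = 0.88), so a change beyond a decrease of 9.97% or an increase of 14.9% lay outside the interval under the authors' scaling. The log2 fold change of Dmd minus that of Dag1 was -0.59 (-1.08 to -0.10) and the log2 fold change of Dag1 minus that of Sgcb was 0.43 (0.11 to 0.75).

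The sarcoglycans form a complex of membrane proteins in striated muscle. Of Sgca, Sgcb and Sgcd, which encode its alpha, beta and delta subunits, 2 were lower and 1 did not pass the test. Sgca, on chromosome 11 at 94962791 to 94976327 (minus strand), had implied means of 1919 (1714 to 2149) and 1442 (1287 to 1616) normalized counts, with no overlap of the intervals. The authors' deposited table gave -0.41 (SE 0.12, adjusted Wald p = 0.0024), a decrease of 24.9%. Sgcb, on chromosome 5 at 73632749 to 73647790 (minus strand), fell from 3593 (3351 to 3852) to 2712 (2529 to 2908), a decrease of 24.5%. It had the smallest adjusted p-value of the 8 genes in the authors' deposited table, with -0.41 (SE 0.073, adjusted Wald p = 3.3e-07). Under total-count scaling Sgca was at -0.12 and Sgcb at -0.12, with adjusted p-values of 0.41 and 0.18. Sgcd had implied means of 602 (539 to 672) and 516 (462 to 576), which overlap, and the authors' deposited table gave -0.22 (SE 0.11, adjusted Wald p = 0.12), a value that turned to 0.066 under total-count scaling.

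Among genes outside the 8, Sspn (sarcospan, a membrane protein bound to the sarcoglycans) was lower at -0.34 (SE 0.11, adjusted Wald p = 0.0095) in the authors' deposited table, and -0.055 under total-count scaling. Sgce, a sarcoglycan also made outside muscle, was higher at 0.61 (SE 0.21, adjusted Wald p = 0.011) in the authors' deposited table. Sgcz was listed at 0.

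**Figure D2:**
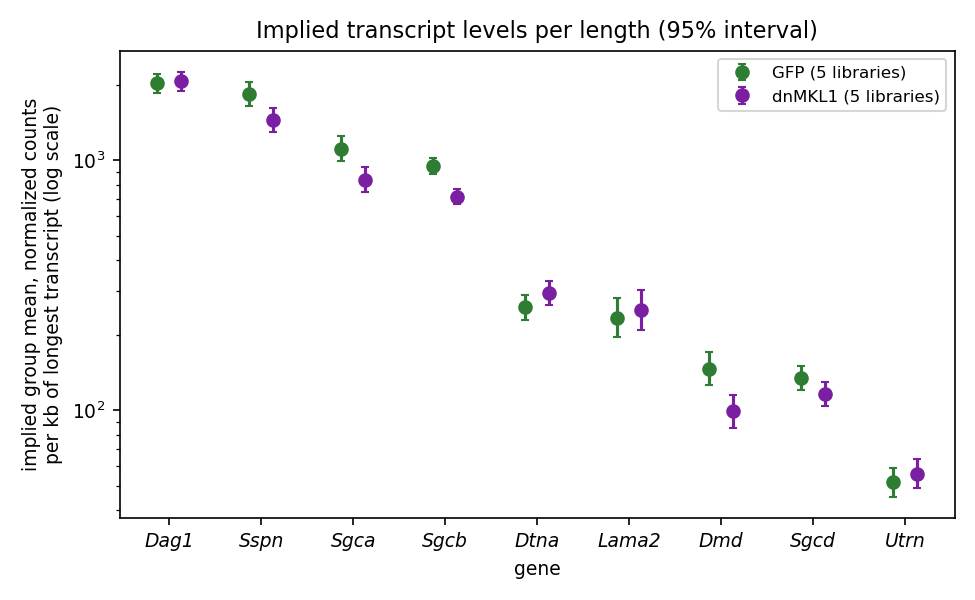
Implied group mean per kilobase of longest transcript (log axis) in the GFP and dnMKL1 groups of 5 libraries, with 95% intervals from the deposited SEs, for the 8 genes and for Sspn. Dag1 and Sspn lie highest and Utrn lowest, and the intervals of the groups separate for Sgca, Sgcb, Sspn and Dmd.

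Per kilobase of longest transcript, the implied means in the GFP group were 2034 for Dag1, 1113 for Sgca, 949 for Sgcb, 258 for Dtna, 235 for Lama2, 147 for Dmd, 135 for Sgcd and 51.6 for Utrn. The intervals of neighbours overlapped for Sgca and Sgcb, for Dtna and Lama2, and for Dmd and Sgcd, so the order within these pairs was not resolved. In the dnMKL1 group Sgcd (116) stood above Dmd (99.1), again with overlapping intervals (104 to 129 and 85.0 to 115). Dtna depends most on the length chosen. Over all its exons its GFP level was 95.9 per kilobase, and that of Dmd 91.9.

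Dtna encodes alpha-dystrobrevin, which binds dystrophin and the syntrophins. Its implied means were 1624 (1453 to 1815) and 1861 (1666 to 2079) normalized counts, with overlapping intervals. The authors' deposited table gave 0.20 (SE 0.12, adjusted Wald p = 0.19). Under total-count scaling it was 0.48, with an adjusted p of 1.3e-04. Lama2 encodes the laminin chain of muscle basement membrane that alpha-dystroglycan binds. Its implied means were 2260 (1884 to 2711) and 2426 (2023 to 2909), and the authors' deposited table gave 0.10 (SE 0.19, adjusted Wald p = 0.74). GENCODE places a predicted gene on the opposite strand across exons of each of these genes (Gm47898 at Dtna, Gm48084 at Lama2), and whether the counting used strand is not given in the sources used here.

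The 8 genes differed in the variation between libraries that their deposited SEs imply. This is a value of the fitted model, the same for both groups, and the spread of the libraries themselves was not seen. The deposited SE implies a coefficient of variation between libraries beyond counting error, which was 20.6% for Lama2, 17.3% for Dmd and 14.5% for Utrn. It was 7.75% for Sgcb and 9.79% for Dag1. The median among genes with base means of 500 to 15000 was 10.2%, with quartiles of 8.23% and 13.2%, so Lama2, Dmd and Utrn lay above the upper quartile. Counting accounted for 0.854% (Dag1) to 10.9% (Sgcd) of the squared SE, the rest being variation between libraries as fitted. Lama2, Dmd and Utrn also have transcripts of over 9 kb. The 151 genes of that length in the class had a median implied variation of 13.9%, beside 10.1% for shorter ones. Of those long genes 19.9% were lower and 15.2% higher, and their median log2 fold change was -0.049. Among the shorter ones 35.4% were lower and 16.1% higher, with a median of -0.10.

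**Figure D3:**
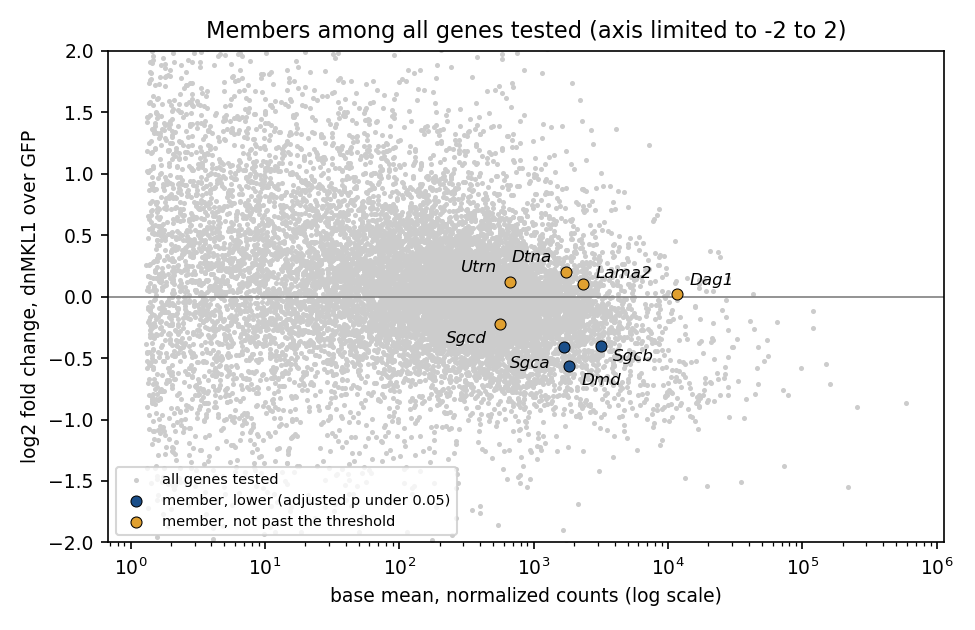
Log2 fold change against base mean (log axis) for all genes tested in the authors' deposited table (grey), with the 8 genes named. Dmd, Sgca and Sgcb (blue) lie below 0, within the cloud of genes of like abundance, and the vertical axis leaves out genes beyond -2 and 2.

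The partners of the complex were described through 66 further genes, of which 61 were tested and 2 (Sgcz and Sntg1) were listed at 0. Of those tested, 16 were higher and 10 lower in the authors' deposited table, with a median log2 fold change of 0.11, beside 16.6% higher and 17.4% lower over all genes tested, and under total-count scaling 39 were higher and 1 lower, where over all genes tested 40.4% were higher and 6.60% lower. Among syntrophins and related genes, 2 were higher and 1 lower of 5 tested, a count too small to set against those shares. Sntb1, encoding the beta1 syntrophin, had the largest fall of the partner genes tested, from 390 to 102 normalized counts, with -1.94 (SE 0.21, adjusted Wald p = 1e-17) in the authors' deposited table and -1.65 under total-count scaling, where it was the 1 partner still lower. Sntg2 and Drp2, a short relative of dystrophin, were higher on few reads, with implied means of 3.18 and 20.5 for Sntg2 and of 0.605 and 9.98 for Drp2.

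Among the few laminin chains tested more were called higher than lower, while most of the other dystroglycan ligands examined did not pass the test. Of 6 laminin chains tested besides Lama2, 4 were higher and 0 lower, with a median of 0.62, and 5 reached an unadjusted p below 0.05. Over all genes tested 16.6% were higher and 17.4% lower. Under total-count scaling 5 chains were higher and 0 lower, beside 40.4% and 6.60% over all genes tested. The lists of laminin chains and of other ligands are too short to set against these shares. By the authors' deposited table, log2 fold changes were 0.66 (SE 0.13) for Lama4, 0.83 (SE 0.19) for Lama5, 0.58 (SE 0.10) for Lamb1 and 1.32 (SE 0.32) for Lama3, with adjusted Wald p-values of 5.2e-06, 6.8e-05, 1.4e-07 and 2.6e-04. Lama3 was scarce, with a base mean of 26.3 in the authors' deposited table. Of 7 other dystroglycan ligands and matrix partners, 2 were higher and 1 lower, and 4 (Hspg2, Nid1, Nid2 and Col4a1) did not pass. Agrn, encoding agrin, a proteoglycan that binds alpha-dystroglycan, rose from 374 to 924 normalized counts, with 1.30 (SE 0.13, adjusted Wald p = 8.8e-21) in the authors' deposited table. Bgn (biglycan) was at 0.58 (SE 0.21, adjusted Wald p = 0.019) and Col4a2 (a collagen IV chain) at -0.37 (SE 0.090, adjusted Wald p = 3.0e-04) in the authors' deposited table. Under total-count scaling Col4a2 was at -0.079 and no longer passed. Among genes with base means of 10 to 500, 20.2% were higher and 12.1% lower, and in the more abundant class the shares were 15.7% and 34.8%.

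Fibroblasts also make basement membrane. Of 8 fibroblast markers 3 (all collagen genes) were higher and 0 lower, and 5 did not pass the test. Beside the counts of all marker lists here, 16.6% were higher and 17.4% lower over all genes tested. Among genes with base means of 10 to 500 these shares were 20.2% and 12.1%, and the lists are too short to set against them. The summed implied mean of the fibroblast markers went from 3217 to 4450 normalized counts, and none was listed at 0. In the authors' deposited table the log2 fold changes were 0.67 (SE 0.17) for Col1a1, 0.64 (SE 0.14) for Col1a2 and 0.44 (SE 0.15) for Col3a1. Of 8 endothelial markers 0 passed the Wald test in either direction (also 0 at an unadjusted p below 0.05), and their summed means were 2832 and 2924, and none was listed at 0. The values were -0.072 (SE 0.30) in the authors' deposited table for Pecam1, 0.097 (SE 0.29) for Kdr, 0.14 (SE 0.25) for Flt1 and 0.20 (SE 0.34) for Cldn5. Of 8 mural markers 3 were higher and 1 lower, with summed means of 11922 and 8174, none at 0. Acta2 set that sum, which was 1468 and 3176 over the other 7 markers. Cspg4 made up most of that rise, with implied means of 501 and 2019. In the authors' deposited table Cspg4 (2.01, SE 0.18), Myh11 (0.73, SE 0.20) and Tagln (0.72, SE 0.18) were higher. Pdgfrb (0.18), Rgs5 (0.014), Kcnj8 (0.029) and Notch3 (0.45) did not pass there. The value of Acta2, which immature cardiomyocytes also express, was -1.06 (SE 0.25) there. Macrophage markers (8, summed means of 158 and 143) and Schwann cell markers (5, summed means of 8.28 and 25.6) were scarce. Of the former 1 was higher (Cd68, 1.03, SE 0.39) and 0 lower, and of the latter 1 was higher (S100b, 2.65, SE 0.61) and 0 lower in the authors' deposited table. Csf1r (-0.0065, SE 0.34), Lyz2 (-0.55, SE 0.26), Mbp (0.41, SE 0.88) and Ngfr (2.44, SE 1.12) did not pass there. The part of other cell types in the laminin and agrin values was not tested.

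**Figure D4:**
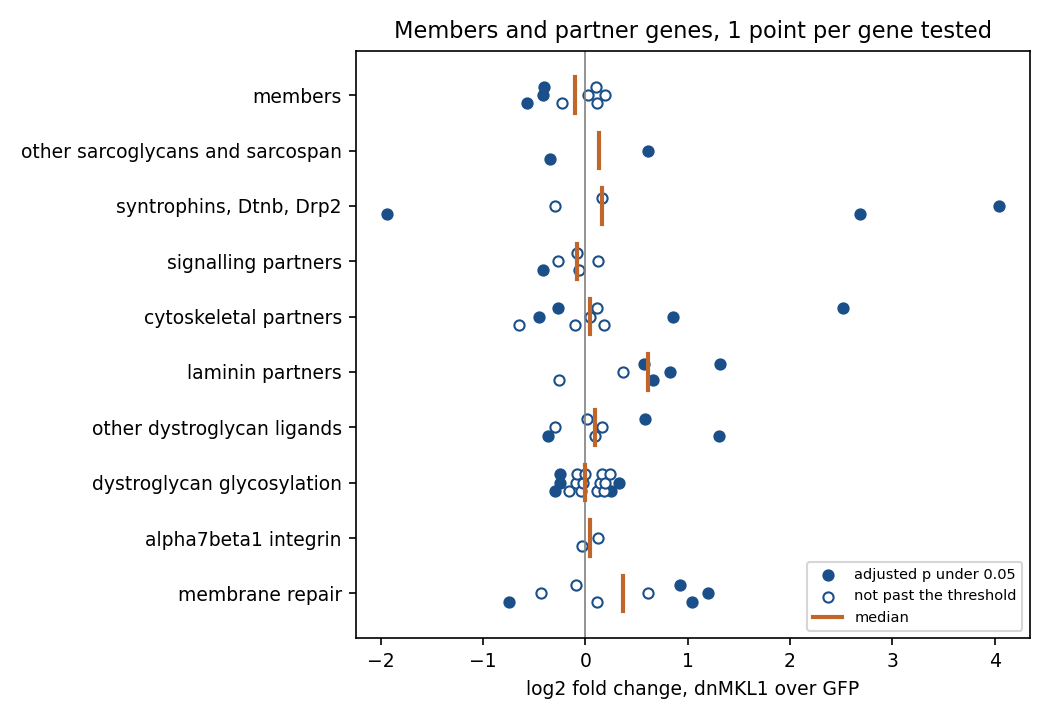
Log2 fold change of each gene tested, dnMKL1 over GFP, for the 8 genes and 9 groups of partner genes (filled, adjusted p-value under 0.05; open, not past it; bar, median). The laminin partners have a median of 0.62, and the genes of dystroglycan glycosylation lie between -0.29 and 0.33.

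Enzymes build the laminin-binding sugar chain of dystroglycan. Of 17 tested, 2 were higher and 3 lower, beside 16.6% higher and 17.4% lower over all genes tested, with a median of -0.0067 and a range from -0.29 to 0.33. The authors' deposited table gave -0.25 (SE 0.076, adjusted Wald p = 0.0047) for B3gnt1 (now B4gat1), which adds glucuronic acid to the chain, -0.29 (SE 0.066, adjusted Wald p = 6.8e-05) for Dolk, which makes the lipid carrier of mannose, and 0.26 (SE 0.077, adjusted Wald p = 0.0043) for Gmppa. Under total-count scaling B3gnt1 and Dolk were at 0.040 and -0.0043. The muscle integrin that also binds laminin showed 0 of 2 subunits past the Wald test (also 0 at an unadjusted p below 0.05), at 0.12 (SE 0.095) for Itga7 and -0.031 (SE 0.077) for Itgb1 in the authors' deposited table. Under total-count scaling both were higher, at 0.41 and 0.26.

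Signalling partners had 1 lower and 0 higher of 5 tested, where over all genes 17.4% were lower and 16.6% higher. This was Cav3, encoding the muscle caveolin, which binds beta-dystroglycan, at -0.42 (SE 0.11, adjusted Wald p = 8.5e-04) in the authors' deposited table and -0.13 under total-count scaling. Grb2 (0.12, SE 0.087) and Mapk12 (-0.26, SE 0.16) did not pass there. Of 9 cytoskeletal partners 2 were higher and 2 lower, also near those shares. The authors' deposited table gave -0.46 (SE 0.15, adjusted Wald p = 0.0073) for Ank2, an ankyrin needed to place dystrophin at the membrane, 0.86 (SE 0.28, adjusted Wald p = 0.0086) for the intermediate filament gene Synm and 2.52 (SE 0.51, adjusted Wald p = 7.5e-06) for the keratin gene Krt8, the last on implied means of 7.05 and 40.5. Ank2 was at -0.17 under total-count scaling.

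Genes of membrane repair, the process that closes tears in the cell membrane, had 3 higher and 1 lower of 8 tested, beside 16.6% and 17.4% over all genes. Dysf, encoding dysferlin, fell from 2936 to 1755 normalized counts, with -0.74 (SE 0.20, adjusted Wald p = 0.0014) in the authors' deposited table and -0.45 (adjusted p = 0.054) under total-count scaling. The annexin genes Anxa5 and Anxa2, whose products bind membranes in the presence of calcium, rose by 1.04 (SE 0.13, adjusted Wald p = 5.7e-14) and 1.20 (SE 0.25, adjusted Wald p = 1.8e-05) in the authors' deposited table. Anxa6, the most abundant annexin gene of the list (-0.095, SE 0.053), and Anxa1 (0.61, SE 0.33) did not pass there. Neither did Trim72 (-0.43, SE 0.19) or Ehd2 (0.11, SE 0.32). Myof, the dysferlin relative myoferlin, had an adjusted Wald p of 0.0495 in the authors' deposited table, close to the threshold and lost with adjustment over every p-value (0.061) or with median-centring (0.051), at a log2 fold change of 0.92 (SE 0.39) and a base mean of 13.4.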

How the data were processed

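RNA of sorted cardiomyocytes was sequenced from 5 GFP and 5 dnMKL1 libraries. Per the submitters' processing notes, CASAVA 1.8, STAR 2.5.3a, featureCounts (Subread 1.5.2) and the build mm10 were used; annotation and strand are not given in the sources used here. The 1 table analysed is a DESeq2 comparison of the groups, judging by its column names per the file headers. The deposited base mean is a signal, the mean of normalized counts over libraries. The deposited fold change is a log2 value, as is its SE. The Wald statistic deposited with them is a score, their quotient (largest gap 1.14e-05). The deposited p-value was adjusted by the authors by the Benjamini-Hochberg method over 14056 genes (recomputed with a largest gap of 1.44e-07). The planned count test was replaced by this Wald test, since no values per library were used.

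Positive values mean higher in dnMKL1, as read from Mkl1. Implied means treat the base mean as lying midway between the means of both groups. Intervals are 95% and use the deposited SE; for group means, the SE was split between the groups with a negative binomial model and size factors recovered from single-read genes. Reads carry no molecular identifiers, so the counting part of these intervals covers counting error only. Lengths and coordinates came from GENCODE M21 (GRCm38). Calculations used Python 3.11.15, pandas 2.3.3 and SciPy 1.17.1 and were tested on simulated data. The 8 genes and the lists were chosen with earlier results of these data known. Differences between genes, the length class and the motif search were added after seeing the values. Named were the 8 genes, in each partner group the 3 smallest p-values and every call with an absolute log2 fold change of at least 0.5, and in each marker list the 2 most abundant genes and the 2 with the smallest p-values. Some other genes of these lists are named beside them. Alternatives were other thresholds and adjustments, a base mean filter and 2 scalings. A few genes of the partner and marker lists are not reported here and enter no list count.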

Additional observations from a re-analysis of the deposited data

How the results depend on the processing

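No paired analysis was possible because the table holds no values per library; for the same reason the count tests, other size factors and fits without 1 library were not run, and whether 1 library decides a value is unknown. The calls of the 8 genes were the same at adjusted p-values under 0.01 and 0.1, with adjustment over every p-value, among genes of base mean 10 or more and after median-centring. Asking also for an absolute log2 fold change of 0.5 or more left 1 of the 8 genes (Dmd, lower), since Sgca (-0.41) and Sgcb (-0.41) are smaller, 16 partner genes (2 lower), and 2735 of the 4792 genes called in all (1489 higher, 1246 lower). Total-count scaling shifts every value by 0.29 and gave 5685 higher and 927 lower genes, 39 higher and 1 lower partner genes (40 in all), and 3 higher and 0 lower of the 8 genes. There Dmd (-0.28), Sgca (-0.12) and Sgcb (-0.12) no longer passed, Utrn (0.40), Dag1 (0.31) and Dtna (0.48) did, Lama2 (0.39, adjusted p = 0.077) did not, and Sgcd reversed to 0.066. Among other named genes B3gnt1 (0.040), Mapk12 (0.025), Itgb1 (0.26), Pecam1 (0.22) and Csf1r (0.28) reversed, the shift itself being the cause. Which scaling is closer to RNA per cell was not tested.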
